A study of Mus musculus with 28 samples.

Results

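The interaction of cell origin and brain compartment asks which genes follow the origin of a macrophage differently at the brain surface and inside the tissue. RNA of sorted macrophages was counted by MARS-seq, which tags the 3' ends of polyadenylated transcripts with unique molecular identifiers (UMIs), in all 28 libraries of the study and 8 groups. Hosts were lethally irradiated Cx3cr1 gfp/+ mice, whose own macrophages carry GFP from the fractalkine receptor locus, and all of them received bone marrow with a floxed hDNMT3A allele 16 weeks before sorting. Mutant chimeras received Vav-Cre: hDNMT3A fl/fl marrow, in which the Cre acts in blood-forming cells, and control chimeras received hDNMT3A fl/fl marrow without Cre. GFP-negative cells, taken as coming from the transplanted marrow, are called donor cells. They and GFP-positive cells, surviving from the host, were sorted from the leptomeninges and from the parenchyma. The GFP gate alone does not tell donor cells from host cells that lack GFP. Leptomeningeal cells were washed off the digested brain surface, parenchymal cells were freed of myelin on Percoll, and actinomycin D was present during handling. Parenchymal cells of both origins are called microglia here, as in the labels. The groups were donor leptomeningeal cells (4 mutant and 4 control libraries), host leptomeningeal cells (2 mutant and 2 control), donor microglia (4 mutant and 4 control) and host microglia (4 mutant and 4 control). The contrast was the log2 difference of donor over host cells in the leptomeninges minus the same difference in the parenchyma, averaged over both genotypes, and 12327 of the 14617 genes in the table passed the filter on low counts and were tested. The labels do not say that libraries came from separate animals, so the p-values measure the spread between libraries, which may be technical.

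Microglia of the parenchyma and macrophages of the leptomeninges both arise from yolk sac progenitors and renew themselves locally, and each takes on a programme set by its niche. Leptomeningeal and other border macrophages are known for scavenger and lectin receptors such as Mrc1, Lyve1 and Cd163, and microglia for P2ry12, Tmem119 and the transcription factor Sall1. After irradiation, cells of the transplanted marrow can enter both places, and those in the parenchyma are known to keep genes such as Ms4a7, Clec12a and Apoe that resident microglia hold low. A positive interaction means that donor over host was larger in the leptomeninges, and a negative one that it was larger in the parenchyma.

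Totals ran over 1631558 to 3066506 UMIs per library in donor leptomeningeal cells, 877905 to 1475135 in host leptomeningeal cells, 479077 to 1013608 in donor microglia and 1521847 to 2903500 in host microglia. Donor microglia were the shallowest population, where 3 UMIs, the level that a count of 0 still allows, reach 6.26 CPM in the shallowest library, for counting error alone. Host cells of each labelled type had the highest share of that type's list. Members of the homeostatic microglia list took 10.98% to 13.7% of UMIs in host microglia and 3.53% to 5.83% in host leptomeningeal cells. They took 3.63% to 4.56% in donor microglia and 1.52% to 2.18% in donor leptomeningeal cells. The border macrophage list took 1.95% to 2.63% in host leptomeningeal cells and at most 1.24% elsewhere. Whether microglia were sorted among the host leptomeningeal cells was not tested. Markers of other cells moved with the populations, as the plot of list shares shows. Neutrophil genes took 3.99% to 10.7% of UMIs in donor leptomeningeal cells, 0.221% to 0.65% in host leptomeningeal cells, 0.123% to 1.20% in donor microglia and 0.0606% to 0.161% in host microglia. Choroid plexus and ependyma genes took 1.68% to 3.52% in donor microglia and at most 0.0417% in the other 20 libraries. Astrocyte genes took 0.152% to 0.723% in donor microglia and at most 0.0427% elsewhere. By the chi-square of counts per degree of freedom between libraries, donor microglia mutant library 3 was the farthest from its group (3.59 to 4.02, against 1.95 to 3.47 among the other 3), and so was control library 2 (4.62 to 6.07, against 1.99 to 2.61). Control library 2 also had the highest astrocyte and mitochondrially encoded shares of its group, at 0.723% and 3.80%, beside 0.152% to 0.253% and 1.38% to 2.08% in the other 3. The chi-square grows with depth, and in the deeper groups it reached 10.6, between donor leptomeningeal control libraries 1 and 2. In these bulk samples fewer cells of a type and less RNA per cell cannot be told apart.

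**Figure D1:**
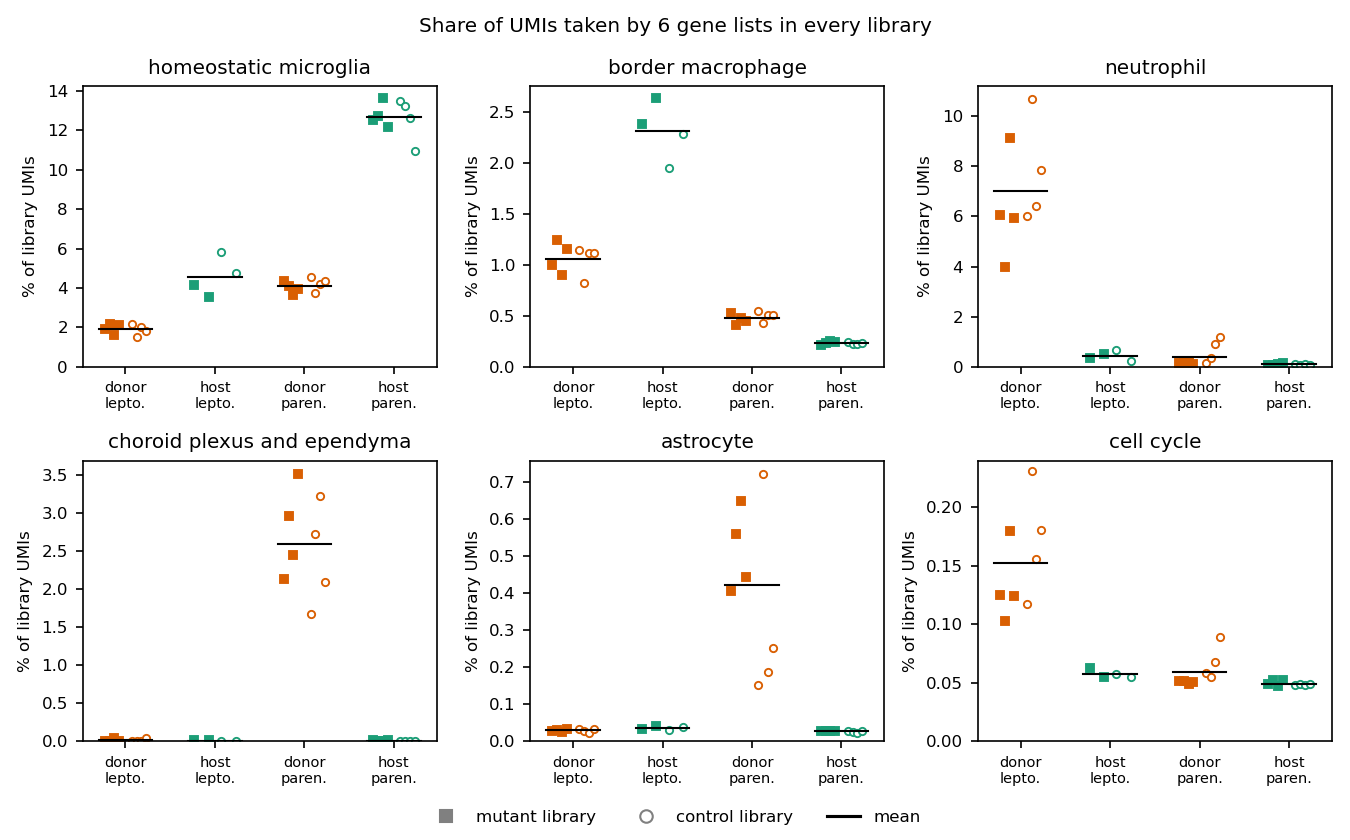
Percent of each library's UMIs (vertical axes) taken by 6 gene lists in the 4 populations, with filled squares for mutant libraries, open circles for control libraries and a line at the mean. Neutrophil genes stand out in donor leptomeningeal cells, and choroid plexus and astrocyte genes in donor microglia, where the choroid plexus list takes 1.68% to 3.52%.

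Origin had a different effect in the leptomeninges and in the parenchyma for 5208 of 12327 genes (42.2%) at an adjusted p under 0.05 in edgeR's quasi-likelihood test with Benjamini-Hochberg adjustment. Of these, 2351 were higher (19.1% of the genes tested) and 2857 lower (23.2%), and 941 and 2126 of them had an interaction past 2-fold. Without donor microglia mutant library 3 and control library 2, an alternative chosen after seeing the data, 5017 genes passed, 2283 higher and 2734 lower. Without mutant library 4 and control library 1, the shallowest of their groups and the pair set aside in an earlier look at these data, 5297 passed. The largest class, 2985 genes or 57.3% of those called, differed by origin in the parenchyma while the leptomeningeal difference did not pass, with 1766 of them lower and 1219 higher. A further 675 differed by origin in the leptomeninges alone, 715 differed in the same direction in both places by unequal amounts, and 167 passed in neither place alone. Origin effects ran in opposite directions in 666 genes: donor cells were higher in leptomeninges and lower in parenchyma in 347, and the reverse held in 319. Against this background, donor and host cells differed in 3718 genes in the leptomeninges (30.2%) and 7448 in the parenchyma (60.4%). These comparisons rest on unequal numbers, since the leptomeningeal one rests on 12 libraries and the parenchymal one on 16, and they share none.

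**Figure D2:**
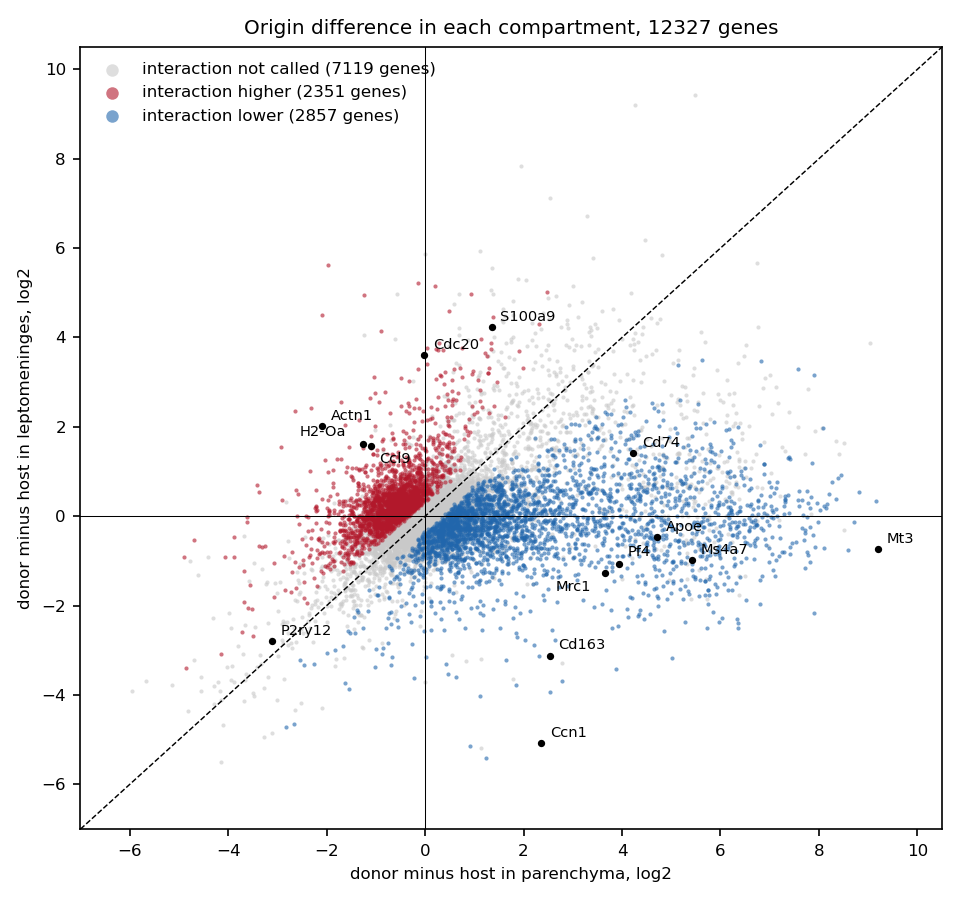
Log2 difference of donor minus host cells in the leptomeninges (vertical axis) against the same difference in the parenchyma (horizontal axis), 1 point per gene, with 2351 genes of higher interaction in red, 2857 of lower interaction in blue and the rest grey. Distance from the dashed line of equal differences is the interaction, and most blue genes lie far to the right at leptomeningeal differences near 0.

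Read by population, host microglia stood farthest from the other 3 most often. Of the 2351 genes with a higher interaction, host microglia lay above the other populations as the most distant in 1000 (42.5%), donor microglia lay below them in 604 (25.7%), donor leptomeningeal cells above in 520 (22.1%) and host leptomeningeal cells below in 227 (9.66%). Of the 2857 lower genes, host microglia lay below the others in 1389 (48.6%), donor microglia above in 960 (33.6%), donor leptomeningeal cells below in 268 (9.38%) and host leptomeningeal cells above in 239 (8.37%). The remaining gene had donor leptomeningeal cells above the rest. The same interaction can be read as a compartment difference that depends on origin. Leptomeninges and parenchyma differed in 7650 genes among donor cells (62.1%) and in 6994 among host cells (56.7%), and among the interaction genes 1445 passed in donor cells alone and 1345 in host cells alone. In a further 329 genes the leptomeninges were higher among donor and lower among host cells, and in 647 the reverse held.

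Mrc1, Pf4 and Apoe, 3 of the 4 marker genes, were lower in donor than in host cells of the leptomeninges and higher in donor than in host cells of the parenchyma. Cd74 was higher in donor cells of both places. Mrc1, the mannose receptor CD206 that takes up glycoproteins (mm10 chromosome 2, 14229392 to 14332057), had a lowest, median and highest level of 409.8, 580.2 and 631 CPM (UMIs per library total after TMM scaling, on the usual CPM scale) in donor leptomeningeal cells, and 1350, 1622, 989 and 1350 CPM in the host leptomeningeal libraries. It had 175, 208 and 276 CPM as the lowest, median and highest in donor microglia, against 12.1, 17.1 and 20.2 in host microglia. No 2 populations overlapped, and host leptomeningeal cells were highest and host microglia lowest. The donor minus host difference in log2 was -1.26 ± 0.11 (SE) in the leptomeninges and 3.66 ± 0.12 in the parenchyma, an interaction of -4.92 ± 0.16 (edgeR adjusted p = 2.99e-28).

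Pf4, a chemokine of platelets that border macrophages also express (chromosome 5, 90772435 to 90773383), had 981, 1630 and 1872 CPM as the lowest, median and highest in donor leptomeningeal cells, and 3505, 3493, 2700 and 3252 CPM in the host libraries. Donor microglia had 223, 330.4 and 429 CPM, and host microglia 15.4, 20.7 and 31.0. Its order of populations was that of Mrc1, again with no overlap. The interaction was -5.01 ± 0.20 (edgeR adjusted p = 7.89e-19), from differences of -1.07 ± 0.14 in the leptomeninges and 3.94 ± 0.15 in the parenchyma.

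Apoe, the lipid carrier of brain lipoproteins (chromosome 7, 19696109 to 19699188), was by contrast highest in donor microglia. It had 28440, 41990 and 48140 CPM as the lowest, median and highest in donor leptomeningeal cells and 61810, 52460, 46750 and 59520 CPM in host leptomeningeal libraries, which overlapped. Donor microglia had 71850, 90790 and 120600 CPM, and host microglia 2355, 3943 and 4477. All 20 libraries outside host microglia lay far above those 8. The leptomeningeal difference of -0.46 ± 0.12 was small beside the parenchymal 4.71 ± 0.11, and the interaction was -5.18 ± 0.15 (edgeR adjusted p = 1.81e-26).

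Cd74, the invariant chain that escorts class II molecules, had 11870, 17420 and 19540 CPM as the lowest, median and highest in donor leptomeningeal cells, against 6477, 7375, 5360 and 5730 CPM in host leptomeningeal libraries. It had 4567, 6364 and 7391 CPM in donor microglia, against 198, 288 and 646 in host microglia. Host leptomeningeal cells and donor microglia overlapped, with donor leptomeningeal cells above both. Donor cells exceeded host cells by 1.41 ± 0.16 in leptomeninges and 4.23 ± 0.14 in parenchyma, an interaction of -2.82 ± 0.19 (edgeR adjusted p = 3.99e-13). On the linear CPM scale the direction turned round, since donor cells gained more CPM over host cells in the leptomeninges, and the difference of differences was 4374 CPM. Of the 5208 interaction genes, 4947 kept their direction on the linear scale.

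**Figure D3:**
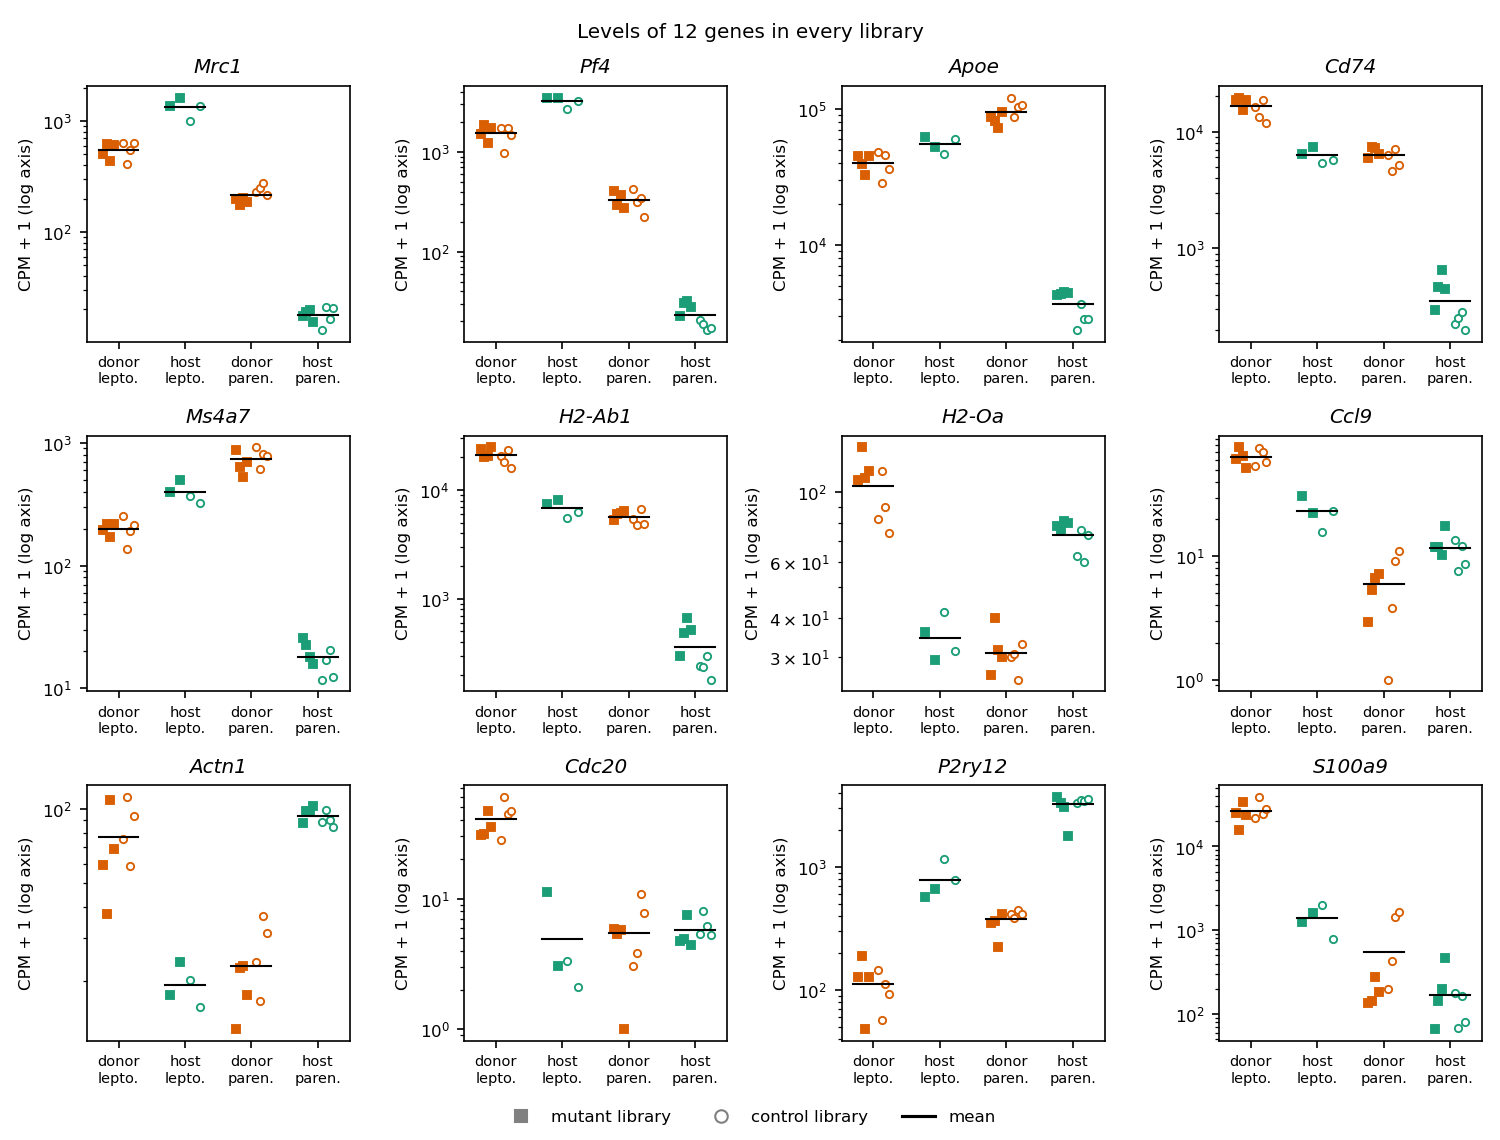
CPM plus 1 on log axes for 12 genes in every library, with donor left of host in each compartment, filled squares for mutant and open circles for control libraries and a line at the mean. Mrc1 and Pf4 peak in host leptomeningeal cells, Apoe and Ms4a7 in donor microglia, Cd74 in donor leptomeningeal cells, and P2ry12 is lower in donor than in host cells of both compartments.

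Genes of border macrophages had, as a group, lower levels in donor cells of the leptomeninges and higher levels in donor cells of the parenchyma. Of the list's 31 tested members, 27 had a lower interaction and 0 a higher one (87.1% lower, beside 23.2% lower and 19.1% higher over all genes). The median was -3.53, beside -0.05 over all genes. In the leptomeninges 27 were lower and 2 higher in donor cells (median -1.07), and in the parenchyma 20 were higher and 4 lower (median 2.22). Over all genes 13.3% were lower and 16.9% higher in the leptomeninges, and 33.1% higher and 27.3% lower in the parenchyma. The 4 members that did not pass, Cd209d, Fcgrt, Gas6 and Fxyd5, were chosen after their values were seen and had interactions of -0.57, -0.26, -0.05 and -0.26. Between compartments, 30 of the 31 were higher in the leptomeninges among host cells and 26 among donor cells. These were 96.8% and 83.9%, beside 31.1% and 30.5% of all genes.

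Cd163, the scavenger receptor for haemoglobin bound to haptoglobin (chromosome 6, 124304656 to 124330527), had 33.9, 63.8 and 84.1 CPM as the lowest, median and highest in donor leptomeningeal cells and 598, 743, 411 and 414 CPM in the host libraries. Donor microglia had 0, 3.70 and 29.6 CPM, and host microglia 0, 1.40 and 3.42. Host leptomeningeal cells stood apart from the other populations, and donor and host microglia overlapped near the level of a few UMIs. Donor microglia mutant library 3 at 17.2 CPM and control library 2 at 29.6 CPM lay above the other 6, which had 0 to 6.84. Its interaction was -5.64 ± 0.80 (edgeR adjusted p = 7.68e-06), with differences of -3.12 ± 0.25 in the leptomeninges and 2.53 ± 0.70 in the parenchyma. Without control library 2 the interaction was -4.16 ± 1.64 (edgeR adjusted p = 0.0473), and without both libraries it was -3.79. The lectins Cd209f and Cd209g averaged 85.0 ± 25.5 and 44.0 ± 12.2 CPM in donor leptomeningeal cells and 781 ± 124 and 326 ± 48.3 CPM in host leptomeningeal cells (SD, n = 8 and 4, and n = 8 in each kind of microglia for the means that follow). In both kinds of microglia they averaged at most 3.49 CPM, and their interactions of -4.85 and -5.10 were lost without donor microglia control library 2 or mutant library 3. Over all settings, DESeq2 and voom included, the adjusted p spanned 1.06e-09 to 0.309 for Cd209f and 2.23e-09 to 1 for Cd209g. Lyve1, a hyaluronan receptor, had -3.53 ± 0.83 (edgeR adjusted p = 0.00161) with 0 UMIs in 3 donor microglia libraries, and without donor microglia mutant library 3 its adjusted p was 0.11, with 0.000171 to 0.195 over all settings.

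Stab1, a scavenger receptor that also binds phosphatidylserine, averaged 1733 ± 284 CPM in donor and 3948 ± 589 in host leptomeningeal cells, and 1288 ± 196 in donor and 786.6 ± 64.3 in host microglia, an interaction of -1.89 ± 0.14 (edgeR adjusted p = 8.45e-15). Dab2, an endocytic adaptor, and Cp, the copper-carrying ferroxidase ceruloplasmin, followed with -4.12 ± 0.17 and -5.23 ± 0.20. The complement genes C2 and C4b were also highest in host leptomeningeal cells. C2 averaged 5.26 ± 0.94 and 73.6 ± 17.4 CPM in donor and host leptomeningeal cells, and C4b averaged 223 ± 36.4 and 1018 ± 264, while in microglia of either origin C2 stayed at or below 5.74 CPM and C4b at or below 29.6 in every library. Their interactions were -5.63 ± 0.65 and -3.28 ± 0.30. Of 18 complement genes tested, 7 were lower (38.9%, beside 23.2% of all genes) and 3 higher (16.7%, beside 19.1%), and Itgam, the alpha chain of complement receptor 3, was among the higher ones at 1.98 ± 0.14.

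Ccn1, Coro2b, Ednrb and Hpca, with Cd163, had the largest pairs of opposite effects with donor cells lower at the surface and higher inside. Ccn1, a secreted matrix protein, averaged 69.5 ± 20.1 CPM in host leptomeningeal cells and at most 2.12 CPM in the other populations, and its interaction of -7.44 ± 1.33 was lost without donor microglia control library 2 (edgeR adjusted p = 1, with 1.92e-14 to 1 over all settings). Ednrb, an endothelin receptor, averaged 7.30 ± 2.76 and 40.5 ± 8.43 CPM in donor and host leptomeningeal cells and 12.7 ± 4.47 and 0.758 ± 0.264 CPM in donor and host microglia, an interaction of -6.38 ± 0.41. Coro2b, an actin-binding coronin, had -6.75 ± 0.55. Hpca, a calcium sensor of neurons, averaged 44.2 ± 24.8 CPM in donor microglia and at most 1.69 CPM in each other population, so its leptomeningeal difference of -2.36 ± 0.81 rests on a few UMIs. Astrocyte and neuron shares were highest in donor microglia, and the part of such RNA in Ednrb, Coro2b and Hpca was not tested.

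Genes known from marrow-derived microglia were higher in donor than in host microglia and did not separate donor from host cells of the leptomeninges in 1 direction. Of the list's 25 tested members, 24 were higher in donor cells of the parenchyma, and in the leptomeninges 15 were higher and 7 lower. Over all genes 33.1% were higher in the parenchyma, and in the leptomeninges 16.9% were higher and 13.3% lower. The interaction was lower in 23 and higher in 1 (92.0% and 4.0%, beside 23.2% and 19.1% of all genes), with a median of -2.67. The list took 8.34% to 11.2% of UMIs in donor leptomeningeal cells, 7.63% to 9.30% in host leptomeningeal cells, 10.7% to 15.5% in donor microglia and 0.613% to 1.04% in host microglia.

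Ms4a7, a tetraspan membrane protein (chromosome 19, 11321039 to 11336146), had 134, 204 and 254 CPM as the lowest, median and highest in donor leptomeningeal cells and 399.5, 492, 368 and 324 CPM in host leptomeningeal libraries. Donor microglia had 528, 738 and 918 CPM, against 10.8, 16.4 and 24.6 in host microglia. All 4 populations were separate, with donor microglia highest. The difference of -0.98 ± 0.14 in the leptomeninges and 5.43 ± 0.15 in the parenchyma gave an interaction of -6.41 ± 0.21 (edgeR adjusted p = 4.2e-21). Ms4a14 behaved alike at -6.23 ± 0.31, and 8 of 10 Ms4a genes had a lower and 0 a higher interaction (80.0% lower, beside 23.2% lower and 19.1% higher over all genes). Ms4a3 and Ms4a8a did not pass.

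Clec12a, an inhibitory lectin that senses dead cells, averaged 342.5 ± 36.2 and 118 ± 17.8 CPM in donor and host leptomeningeal cells and 212 ± 38.1 and 6.12 ± 2.68 CPM in donor and host microglia. Donor cells were thus higher in both places, by 1.54 ± 0.13 in the leptomeninges and 5.23 ± 0.14 in the parenchyma, an interaction of -3.69 ± 0.19 (edgeR adjusted p = 2.2e-20), which had the opposite sign on the linear CPM scale (18.6 CPM). Itga4, an integrin used to cross vessel walls, and Ccr1, a chemokine receptor, had -3.74 ± 0.26 and -3.91 ± 0.19, and Ccr1 was lower in donor than in host leptomeningeal cells by 0.43 in log2. Lyz2, lysozyme of myeloid cells, had -2.71 ± 0.12 and reversed on the linear scale (1406 CPM). Ccr2, the receptor that brings monocytes out of the marrow, averaged 505 ± 35.1 and 121 ± 20.8 CPM in donor and host leptomeningeal cells and 72.9 ± 35.2 and 8.22 ± 2.28 CPM in donor and host microglia. Its interaction of -1.07 ± 0.34 (edgeR adjusted p = 0.0159) was lost without host leptomeningeal mutant library 2 (edgeR adjusted p = 0.0754, with 0.00124 to 0.0754 over all settings) and had the opposite sign on the linear scale (319 CPM).

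Class II antigen presentation genes had interactions of both signs in log2. All 10 tested genes of the list were higher in donor than in host cells of the leptomeninges, and 8 were higher and 2 lower in donor cells of the parenchyma. Over all genes 16.9% were higher in the leptomeninges, and in the parenchyma 33.1% were higher and 27.3% lower. The interaction was lower for the peptide-binding chains H2-Aa, H2-Ab1 and H2-Eb1, for Cd74 and for Ciita, the co-activator that class II genes depend on, and higher for the chains of the peptide-loading proteins H2-DM (H2-DMa, H2-DMb1, H2-DMb2) and H2-O (H2-Oa, H2-Ob). The 5 higher and 5 lower of 10 stand beside 19.1% higher and 23.2% lower over all genes, and the grouping by role was made after the values were seen. On the linear CPM scale the 5 lower genes had the opposite sign, and H2-DMa lost its call in 13 of 40 alternatives. H2-Aa, Ciita, H2-Ob and the H2-DM chains were named after their values were seen.

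Promoter letters are shown for 2 genes of each direction in log2, because class II promoters are known to share a Y box, whose core reads ATTGG. The lines give the 120 bases before the annotated start, 5' to 3' on the gene's strand, from RefSeq on GRCm38.p6 at chr17:34287824-34287943 (minus strand) for H2-Aa, chr17:34305747-34305866 for H2-Eb1, chr17:34092259-34092378 for H2-Oa and chr17:34153071-34153190 for H2-DMb1 (plus strand), with ATTGG, or CCAAT on the other strand, in capitals.
H2-Aa: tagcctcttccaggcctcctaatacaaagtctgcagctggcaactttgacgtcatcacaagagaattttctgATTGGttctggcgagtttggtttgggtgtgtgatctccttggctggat
H2-Eb1: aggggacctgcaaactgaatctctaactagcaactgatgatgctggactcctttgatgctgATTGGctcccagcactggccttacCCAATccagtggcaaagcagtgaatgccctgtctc
H2-Oa: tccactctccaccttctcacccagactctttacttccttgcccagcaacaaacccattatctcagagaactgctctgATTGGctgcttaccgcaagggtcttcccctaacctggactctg
H2-DMb1: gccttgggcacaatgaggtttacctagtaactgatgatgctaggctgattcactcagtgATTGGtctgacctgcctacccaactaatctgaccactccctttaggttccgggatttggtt
ATTGG starts 48, 59, 43 and 61 bases before the start in these 4 genes, and H2-Eb1 also holds CCAAT at 35 bases. Searched on both strands, the letters were in the window of 6 of the 7 class II genes with a sequence in the table used, H2-DMa being the exception, and in 23.6% of 12189 promoter windows of tested genes. So genes with both directions of interaction carried the same letters, which marks a match of letters and not a binding site.

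H2-Ab1, the class II beta chain (chromosome 17, 34257689 to 34269419), had 15900, 20620 and 24760 CPM as the lowest, median and highest in donor leptomeningeal cells, against 7386, 8067, 5574 and 6254 CPM in host leptomeningeal libraries. It had 4757, 5732 and 6657 CPM in donor microglia, against 179.5, 296 and 664 in host microglia. Donor leptomeningeal cells stood above all others and host microglia below, as for Cd74. Donor cells were higher by 1.62 ± 0.16 in the leptomeninges and 4.07 ± 0.13 in the parenchyma, an interaction of -2.44 ± 0.18 (edgeR adjusted p = 7.14e-12). H2-Aa, H2-Eb1 and Ciita had -2.38 ± 0.26, -2.40 ± 0.21 and -2.48 ± 0.27. As for Cd74, the sign was reversed on the linear scale in H2-Ab1 (8740 CPM), H2-Aa (6454), H2-Eb1 (3607) and Ciita (132).

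H2-Oa, the alpha chain of H2-O, which restrains peptide loading (chromosome 17, 34092340 to 34095234), had 73.4, 109 and 138 CPM as the lowest, median and highest in donor leptomeningeal cells, against 35.1, 28.3, 40.8 and 30.3 CPM in host leptomeningeal libraries. Donor microglia had 24.5, 29.3 and 39.0 CPM, against 59.0, 75.1 and 80.1 in host microglia. Donor leptomeningeal cells and host microglia were thus both high, and overlapped, and the remaining populations were both low and overlapped too. The differences were 1.61 ± 0.14 in the leptomeninges and -1.27 ± 0.13 in the parenchyma, an interaction of 2.88 ± 0.19 (edgeR adjusted p = 6.06e-17). H2-Ob followed with 1.44 ± 0.21, higher in donor leptomeningeal cells by 0.94 and lower in donor microglia by 0.50. H2-DMb1, a beta chain of the loading catalyst H2-DM, averaged 562 ± 48.5 and 223 ± 30.6 CPM in donor and host leptomeningeal cells and 286 ± 54.1 and 243.5 ± 23.5 in donor and host microglia (1.10 ± 0.14). H2-DMb2 is a near copy of it, so reads may be split between them uncertainly. H2-DMa was weak at 0.33 ± 0.13 (edgeR adjusted p = 0.0325).

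Genes that were high in donor leptomeningeal cells and in host microglia, and low in the other 2 populations, made the upward side of the opposite pattern. Actn1, an actin cross-linker of adhesion sites (chromosome 12, 80167547 to 80260371), had 36.6, 71.4 and 111 CPM as the lowest, median and highest in donor leptomeningeal cells, against 16.5, 22.9, 19.3 and 14.6 CPM in host leptomeningeal libraries. Donor microglia had 11.7, 21.8 and 35.9 CPM, against 83.3, 93.4 and 102 in host microglia. Donor and host cells did not overlap in either place, and the order was reversed between the places. Its interaction of 4.12 ± 0.32 was the highest among the genes that met the naming rule (edgeR adjusted p = 3.36e-11), from 2.02 ± 0.25 in the leptomeninges and -2.09 ± 0.20 in the parenchyma.

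Itgb2, the beta chain of leukocyte integrins (chromosome 10, 77530252 to 77565708), had 628, 818 and 999 CPM as the lowest, median and highest in donor leptomeningeal cells, against 388, 464, 457 and 438 CPM in host leptomeningeal libraries, and 237, 285 and 357.5 CPM in donor microglia, against 699, 854 and 964 in host microglia. As for Actn1, donor leptomeningeal cells and host microglia were the high populations. Unlike for Actn1, donor microglia lay below host leptomeningeal cells without overlap. Itgb2 had an interaction of 2.42 ± 0.14 (edgeR adjusted p = 1.88e-18). Its ligand Icam1 followed with 1.49 ± 0.16 and differences of 0.49 in the leptomeninges and -1.01 in the parenchyma. Rab27a, a GTPase of vesicle secretion, had 3.30 ± 0.33 and differences of 1.27 and -2.03 in those places.

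The chemokines Ccl9 and Ccl6 had a higher interaction too, with their highest mean level in donor leptomeningeal cells. Ccl9 (chromosome 11, 83572919 to 83578636) had 51.6, 62.6 and 75.9 CPM as the lowest, median and highest in donor leptomeningeal cells, against 29.9, 21.6, 14.6 and 22.5 CPM in host leptomeningeal libraries. It had 0, 5.03 and 10.1 CPM in donor microglia, against 6.59, 10.9 and 16.6 in host microglia, with donor leptomeningeal cells alone at the top and host cells of both places overlapping. The interaction was 2.67 ± 0.35 (edgeR adjusted p = 2.61e-08), and 2.09 ± 0.16 for Ccl6. Of 22 chemokine ligands tested, 11 had a lower interaction and 3 a higher one, beside 23.2% lower and 19.1% higher over all genes. The higher share of 13.6% was thus below that over all genes, and the lower share was above it. The third higher ligand was Ccl4, named after its values were seen. Siglecg, an inhibitory receptor for sialic acids, and Ceacam1, an adhesion receptor, were highest in donor leptomeningeal cells, at 23.3 ± 5.46 and 61.3 ± 13.9 CPM against 3.18 ± 1.93 and 10.03 ± 4.09 CPM in host leptomeningeal cells, and had interactions of 3.77 ± 0.51 and 3.51 ± 0.36. Olfml2b, an extracellular matrix protein, averaged 14.9 ± 8.48 and 4.68 ± 3.60 CPM in donor and host leptomeningeal cells and 15.5 ± 4.40 and 44.9 ± 4.23 CPM in donor and host microglia (3.10 ± 0.43). Without host leptomeningeal control library 1 the interaction of Olfml2b was 6.19, and without host leptomeningeal mutant library 2 that of Siglecg was 4.48.

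A further set of genes with a higher interaction was high in host microglia, low in donor microglia and close between donor and host cells of the leptomeninges. Mrc2, a collagen-binding relative of Mrc1, averaged 30.5 ± 8.07 CPM in host microglia and at most 5.11 CPM elsewhere (4.10 ± 0.55, and 5.01 without host leptomeningeal mutant library 1). It was the only 1 of 21 C-type lectins with a higher interaction, beside 14 with a lower one (4.76% and 66.7%, beside 19.1% and 23.2% of all genes). Siglecf, a receptor for sialic acids, averaged 7.19 ± 1.76 and 9.80 ± 1.89 CPM in donor and host leptomeningeal cells and 2.36 ± 2.08 and 31.8 ± 3.29 CPM in donor and host microglia (3.43 ± 0.42). Itgb3, an integrin beta chain, averaged 20.5 ± 6.32 and 21.4 ± 4.46 CPM in donor and host leptomeningeal cells and 4.41 ± 2.27 and 51.9 ± 6.23 CPM in donor and host microglia (3.59 ± 0.33). Pecam1, an adhesion molecule also found on endothelium, averaged 32.5 ± 5.20 CPM in host microglia and at most 3.57 CPM elsewhere (3.49 ± 0.50). In each of these 4 the leptomeningeal difference did not pass, at 0.70, -0.45, -0.02 and -0.13 in log2.

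Homeostatic genes of microglia were lower in donor cells of both places. All 28 members of that list were lower in donor than in host microglia (median -1.98), and 27 were lower in donor than in host leptomeningeal cells (median -1.79). Over all genes 27.3% were lower in donor microglia and 13.3% in donor leptomeningeal cells. The interaction was higher in 8 and lower in 5 of the 28, with a median of 0.26, beside 19.1% higher and 23.2% lower over all genes. By genotype the counts were unlike. In mutant chimeras 12 were higher and 0 lower (median 0.69, beside 12.9% higher and 17.7% lower over all genes), and in control chimeras 3 were higher and 5 lower (median -0.28, beside 10.7% and 14.8%). The difference between these list values was not tested. P2ry12, the ADP receptor of microglial processes (chromosome 3, 59216272 to 59262871), had 47.1, 119 and 186 CPM as the lowest, median and highest in donor leptomeningeal cells, against 564, 655, 1153 and 774.5 CPM in host leptomeningeal libraries. It had 222, 397 and 442 CPM in donor microglia, against 1785, 3374 and 3707 in host microglia. No populations overlapped, with donor below host in each place. The differences of -2.80 ± 0.26 in the leptomeninges and -3.11 ± 0.23 in the parenchyma left an interaction of 0.31 ± 0.34 (edgeR adjusted p = 0.516). Tmem119, a membrane protein of microglia, and Cx3cr1, whose locus carries the GFP of the hosts, did not pass either, with -0.12 ± 0.24 and 0.13 ± 0.22.

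Selplg, the ligand of P-selectin, had the clearest interaction of the homeostatic list. It averaged 688 ± 30.1 and 1468 ± 521 CPM in donor and host leptomeningeal cells and 934 ± 154 and 7776 ± 566 CPM in donor and host microglia, an interaction of 2.01 ± 0.14 (edgeR adjusted p = 7.03e-16). Gpr84, P2ry13 and Cd81 had 1.45 ± 0.21, 1.04 ± 0.21 and 1.12 ± 0.14. Sall1, the transcription factor that keeps microglial identity, averaged 3.06 ± 2.15 and 27.2 ± 16.2 CPM in donor and host leptomeningeal cells and 17.0 ± 8.17 and 293 ± 15.5 CPM in donor and host microglia. Its interaction of 1.07 ± 0.42 (edgeR adjusted p = 0.0395) was lost in 15 of 40 alternatives, with adjusted p of 0.00432 to 0.213. The 5 lower members were Fcrls, Sparc, Trem2, Crybb1 and Serpine2, of which the last 4 were named after their values were seen. Sparc, a matrix glycoprotein, averaged 153 ± 63.0 and 1579 ± 632 CPM in donor and host leptomeningeal cells and 1974 ± 487 and 9237 ± 610 CPM in donor and host microglia (-1.06 ± 0.31), and its sign, like that of Trem2, Crybb1 and Serpine2, was reversed on the linear scale. Without host leptomeningeal control library 1, Sparc, Trem2 and Fcrls lost their calls, with adjusted p of at most 0.056, 0.156 and 0.0643 over all settings. Trem2 also lost it without host leptomeningeal mutant library 1 and Fcrls without mutant library 2.

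Of 28 cytokine and growth factor receptors, 12 had a higher interaction and 7 a lower one (42.9% and 25.0%, median 0.50), and 9 of 23 genes of TGF-beta signalling were higher and 4 lower (39.1% and 17.4%, median 0.10), beside 19.1% higher and 23.2% lower over all genes. Csf3r, the receptor of the granulocyte growth factor, averaged 76.3 ± 8.57 and 71.6 ± 20.9 CPM in donor and host leptomeningeal cells and 159.5 ± 24.2 and 367.5 ± 26.6 CPM in donor and host microglia (1.33 ± 0.16). Ifngr1, an interferon-gamma receptor chain, had 1.26 ± 0.15, and Il10rb, a shared chain of interleukin-10 family receptors, had -1.18 ± 0.14. Smad3, a signal carrier of TGF-beta, had 1.83 ± 0.24, and Ltbp3, which tethers latent TGF-beta, had -1.57 ± 0.33. Cdkn1a, the p53 target that stops the cell cycle, averaged 556 ± 71.7 and 1215 ± 160 CPM in donor and host leptomeningeal cells and 317 ± 42.0 and 1876 ± 249 CPM in donor and host microglia (1.44 ± 0.15), and 7 of 18 p53 targets were higher and 4 lower (38.9% and 22.2%).

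Proliferation genes were high in donor leptomeningeal cells. Of 32 tested cell cycle genes, 31 were higher in donor than in host cells of the leptomeninges and 14 in the parenchyma. These were 96.9% and 43.8%, beside 16.9% and 33.1% of all genes. The interaction was higher in 21 and lower in 2 (65.6% and 6.25%, beside 19.1% and 23.2% of all genes), with a median of 1.53. The lower 2 were Stmn1, a microtubule regulator, and H2az1, a histone variant, both named after their values were seen, with -0.96 ± 0.37 and -0.58 ± 0.16. Stmn1 lost its call in 12 of 40 alternatives and H2az1 in 1. Cdc20, which starts the breakdown of cyclins in mitosis (chromosome 4, 118432901 to 118437352), had 27.0, 38.8 and 59.1 CPM as the lowest, median and highest in donor leptomeningeal cells, against 10.3, 2.02, 2.31 and 1.12 CPM in host leptomeningeal libraries. It had 0, 4.55 and 9.79 CPM in donor microglia, against 3.43, 4.30 and 6.98 in host microglia. Donor leptomeningeal cells alone stood apart, at a difference of 3.61 ± 0.35 beside -0.01 ± 0.36 in the parenchyma, and the interaction was 3.62 ± 0.51 (edgeR adjusted p = 1.54e-07), or 4.34 without host leptomeningeal mutant library 1.

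Mcm5 and Mcm3, subunits of the replicative helicase, had 2.59 ± 0.36 and 1.44 ± 0.21, and both were lower in donor than in host microglia. Top2a, a topoisomerase of dividing cells, had 2.34 ± 0.49, and Mki67, a proliferation marker, did not pass with 1.32 ± 0.66 (edgeR adjusted p = 0.119). Both were named after their values were seen. Ccnb1, cyclin B1, was at 0 in 3 of 4 host leptomeningeal libraries, so its fitted 5.37 ± 1.01 depends on the prior count, and it was 7.54 without host leptomeningeal control library 1. Tmem40 and Tmem216, membrane proteins of which the second belongs to the base of cilia, had the pattern of Cdc20, with 32.9 ± 10.03 and 53.6 ± 18.2 CPM in donor leptomeningeal cells, at most 2.62 and 6.08 CPM elsewhere on average, and interactions of 3.72 ± 0.62 and 3.42 ± 0.46. Without host leptomeningeal control library 1, Tmem40 had 5.91.

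Neutrophil genes were high in the same libraries. S100a9, a subunit of the calprotectin pair of neutrophils (chromosome 3, 90692632 to 90695721), had 15780, 24870 and 39120 CPM as the lowest, median and highest in donor leptomeningeal cells, against 1256, 1591, 2006 and 790.2 CPM in host leptomeningeal libraries. It had 136, 238 and 1628 CPM in donor microglia, against 64.9, 154 and 461 in host microglia. Donor leptomeningeal cells stood above every other library. Its interaction was 2.87 ± 0.67 (edgeR adjusted p = 0.00158). Of 24 neutrophil genes tested, 23 were higher in donor leptomeningeal cells and 19 in donor microglia. These were 95.8% and 79.2%, beside 16.9% and 33.1% of all genes. The interaction was higher in 4 (16.7%, beside 19.1% of all genes) and lower in 0 (beside 23.2%). The neutrophil share of UMIs was 3.99% to 10.7% in donor leptomeningeal cells, the libraries with the most cell cycle UMIs (0.103% to 0.231%, against 0.0548% to 0.0629% in host leptomeningeal cells). With the neutrophil list as a covariate centred within groups, 5337 genes were called, 2437 higher and 2900 lower. A covariate centred this way cannot remove a difference between populations, and the part of neutrophil RNA in single genes was not tested.

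The largest negative interactions belonged to genes that were high in donor microglia alone and near 0 in host microglia. Mt3, a metallothionein of the brain (chromosome 8, 94152607 to 94154146), had 1.15, 4.20 and 8.28 CPM as the lowest, median and highest in donor leptomeningeal cells and 12.4, 7.42, 6.16 and 7.86 CPM in host leptomeningeal libraries. It had 82.9, 286 and 417 CPM in donor microglia, against 0, 0.171 and 1.72 in host microglia, where 4 of 8 libraries had 0 UMIs. Its interaction was -9.95 ± 1.16 (edgeR adjusted p = 4.59e-07), a size that depends on the prior count and was -10.59 without host microglia mutant library 1. Slc1a2, the glutamate transporter of astrocytes, averaged 431 ± 243 CPM in donor microglia and at most 13.2 CPM elsewhere. Kcnj13, a potassium channel of choroid plexus, averaged 44.2 ± 18.7 CPM in donor microglia and had 1 UMI in all host microglia libraries together, and its call was lost without host leptomeningeal control library 1 (edgeR adjusted p = 1, with 1.5e-20 to 1 over all settings). Scg3, Nrsn1 and Ntm, genes of neurons and glia, showed the same pattern.

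Ttr, the thyroid hormone carrier made by choroid plexus, averaged 24280 ± 6044 CPM in donor microglia, 134.5 ± 181 and 75.0 ± 46.2 in donor and host leptomeningeal cells and 72.3 ± 49.6 in host microglia. Its interaction of -7.52 ± 1.21 was lost without host leptomeningeal control library 1 (edgeR adjusted p = 0.172, with 4.8e-10 to 0.172 over all settings), and was -8.48 and -8.28 without donor leptomeningeal control library 4 or mutant library 3. The interaction was lower in 18 of 19 astrocyte genes, 17 of 18 neuron genes, 7 of 12 oligodendrocyte genes and 9 of 13 choroid plexus and ependyma genes. It was higher in 0 of any, beside 23.2% lower and 19.1% higher over all genes. Gfap, the intermediate filament of astrocytes, averaged 27.1 ± 14.6 CPM in donor microglia beside at most 6.60 elsewhere. Neuron genes took 0.0455% to 0.237% and oligodendrocyte genes 0.171% to 0.570% of UMIs in donor microglia, beside at most 0.0333% and 0.241% elsewhere. With the astrocyte and neuron lists or the choroid plexus list as a covariate centred within groups, 5264 and 5234 genes were called. Centred this way, the covariate cannot remove a difference between populations, and the part of such RNA in single genes was not tested. Among the 10870 genes with a mean of at least 1 CPM in host microglia, 4422 were called (40.7%), 2341 higher and 2081 lower.

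Igfbp2, Hopx, Ace and Cacnb3 were among the leading genes that were higher in donor cells of both places. Ace, the angiotensin-converting enzyme also carried by monocytes (chromosome 11, 105967945 to 105989964), averaged 40.7 ± 12.4 and 22.6 ± 9.14 CPM in donor and host leptomeningeal cells and 59.5 ± 10.2 and 0.927 ± 0.716 CPM in donor and host microglia, with differences of 0.88 ± 0.21 in the leptomeninges and 6.20 ± 0.26 in the parenchyma and an interaction of -5.32 ± 0.38 (edgeR adjusted p = 1.15e-15), or -5.91 without host microglia control library 3. Igfbp2, a carrier of insulin-like growth factors, averaged 57.1 ± 13.3 and 35.3 ± 12.4 CPM in donor and host leptomeningeal cells and 239 ± 69.0 and 0.730 ± 0.816 CPM in donor and host microglia (-7.51 ± 0.52, and -8.29 without host microglia mutant library 4). Cacnb3, a calcium channel subunit, had 3 UMIs in all host microglia libraries. Hopx, a homeodomain co-factor, had -5.61 ± 0.46. Donor microglia were also the libraries with the highest choroid plexus and astrocyte shares. The part of such RNA in the levels of Igfbp2, Hopx, Ace and Cacnb3 was not tested.

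Several pathways had members that shared the lower interaction, at unequal sizes. Type I interferon response genes had 23 of 44 lower and 0 higher (52.3% lower, beside 23.2% lower and 19.1% higher over all genes). Their median origin differences were 0.24 in the leptomeninges and 1.14 in the parenchyma. Bst2, which tethers budding virions (chromosome 8, 71534255 to 71537456), had 359.5, 519 and 794 CPM as the lowest, median and highest in donor leptomeningeal cells and 1118, 784, 860 and 742 CPM in host leptomeningeal libraries. It had 1822, 2365 and 2843 CPM in donor microglia, against 339, 358 and 409 in host microglia. Donor microglia stood alone at the top, and the interaction was -3.37 ± 0.20 (edgeR adjusted p = 3.66e-13). Ifi207, an interferon-inducible nucleic acid sensor family member, had -4.12 ± 0.22.

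Cytosolic ribosomal protein genes had 37 of 49 lower and 1 higher (median -0.53). The 1 higher was Rpl37, named after its values were seen. Both origin effects were positive, with 43 higher in donor cells of the leptomeninges and 48 in the parenchyma. These were 87.8% and 98.0%, beside 16.9% and 33.1% of all genes. The 7 mitochondrially encoded genes tested were all lower (median -4.18): mt-Co1, a subunit of cytochrome oxidase, averaged 871 ± 126 and 1071 ± 185 CPM in donor and host leptomeningeal cells and 3158 ± 1041 and 189 ± 64.8 CPM in donor and host microglia. Their median difference by origin was -0.26 in the leptomeninges and 3.94 in the parenchyma. Nuclear genes of oxidative phosphorylation had 27 of 60 lower and 3 higher. Immediate early and stress genes had 18 of 27 lower and 2 higher, with Fos at -1.27 ± 0.16, in cells handled with actinomycin D. Class I presentation genes had 10 of 19 lower and 3 higher, with H2-K1 at -0.91 ± 0.12. These shares stand beside 23.2% lower and 19.1% higher over all genes.

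T and NK cell genes had 18 of 23 lower and 0 higher (78.3% lower, beside 23.2% lower and 19.1% higher over all genes). Cd4, a T cell co-receptor also carried by some macrophages, averaged 13.6 ± 4.36 and 87.9 ± 19.1 CPM in donor and host leptomeningeal cells and 3.58 ± 1.59 and 1.14 ± 1.12 in donor and host microglia (-4.56 ± 0.64). The T cell receptor chains Trac, Trbc1 and Trbc2 averaged 26.2 ± 6.30, 62.9 ± 5.65 and 63.4 ± 17.0 CPM in host leptomeningeal cells and at most 16.4, 35.5 and 45.5 elsewhere. The list took 0.0523% to 0.0878% of UMIs in donor leptomeningeal cells, 0.0757% to 0.114% in host leptomeningeal cells, 0.0228% to 0.0498% in donor microglia and 0.00659% to 0.0218% in host microglia, and the part of T cell RNA in these results was not tested.

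**Figure D4:**
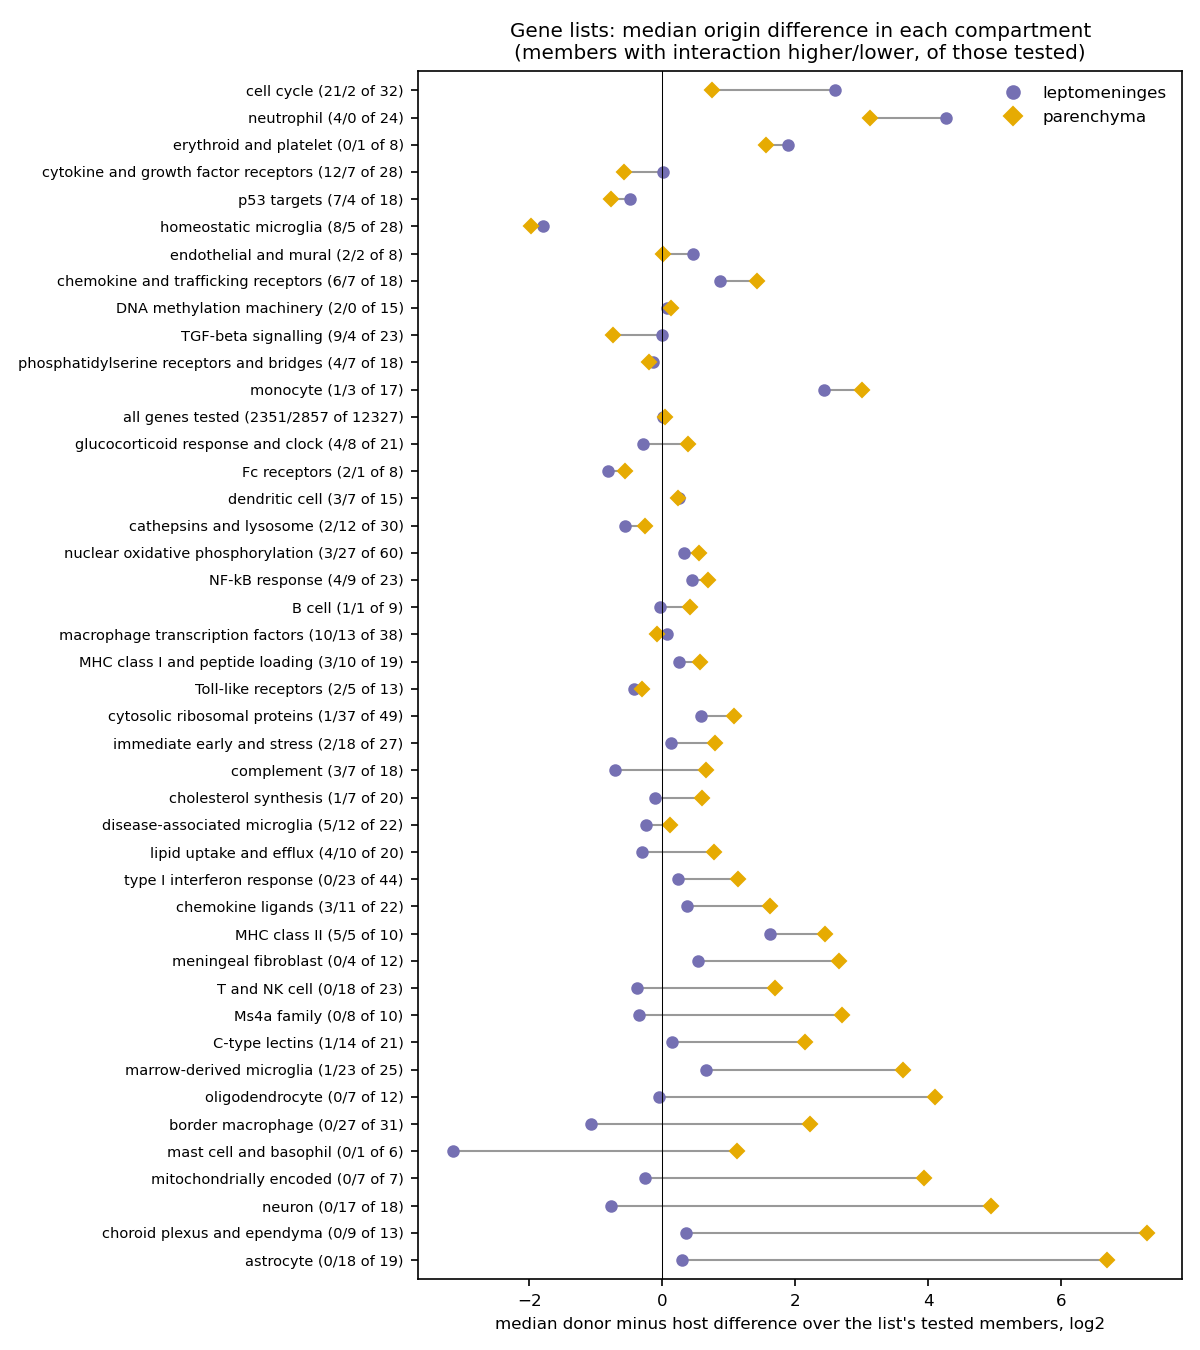
Median log2 difference of donor minus host (horizontal axis) over the tested members of 43 gene lists and over all genes, in leptomeninges (circles) and parenchyma (diamonds), ordered by the median interaction, with the number of members of higher and lower interaction beside each name. Border macrophage genes lie at -1.07 in leptomeninges and 2.22 in parenchyma, cell cycle genes at 2.59 and 0.75, and homeostatic microglia genes at -1.79 and -1.98.

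The interaction was then compared between genotypes, which share no library. It passed in 3782 genes in mutant chimeras (30.7%) and in 3136 genes in control chimeras (25.4%). Both called 2306, which is 61.0% of the mutant and 73.5% of the control calls, and all 2306 had the same direction. Of the genes called in mutant chimeras 97.2% had the same sign in control chimeras, and of those called in control chimeras 98.3% had the same sign in mutant chimeras. Across the 12327 genes the values of both genotypes had a Pearson r of 0.804, given as a description, since genes are not independent replicates. Mrc1 had -4.94 in mutant and -4.91 in control chimeras, Pf4 -4.78 and -5.24, Apoe -4.77 and -5.58, and Cd74 -2.49 and -3.16.

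**Figure D5:**
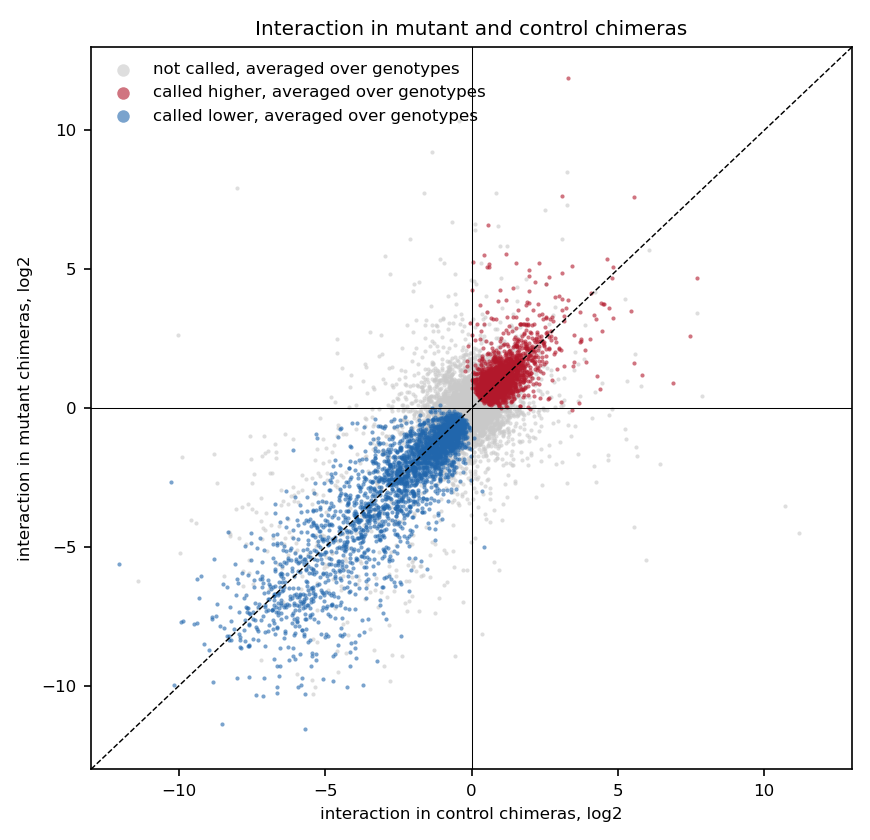
Interaction in log2 in mutant chimeras (vertical axis) against that in control chimeras (horizontal axis), 1 point per gene, coloured by the call of the average over genotypes. Most called genes lie near the dashed line of equal values, and 2306 genes were called in both genotypes, all in the same direction.

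The difference of the interaction between genotypes, mutant minus control, passed for 0 genes (0% of 12327) in edgeR's quasi-likelihood test. Without adjustment 579 genes had p under 0.05, and the lowest adjusted p was 0.461. DESeq2's Wald test called 3. With 2 host leptomeningeal libraries per genotype this comparison has the least precision of those made, and a difference that does not pass is not shown to be absent. Dnmt3a, the mouse gene of the DNA methyltransferase whose human form the donor allele carries, averaged 30.2 ± 6.32 and 44.3 ± 4.18 CPM in donor and host leptomeningeal cells and 68.4 ± 11.9 and 104 ± 6.31 CPM in donor and host microglia. It was lower in donor cells of both places, at -0.55 in the leptomeninges and -0.61 in the parenchyma, and its interaction of 0.06 ± 0.19 did not pass (edgeR adjusted p = 0.848). Whether reads from the human allele are counted with it is not stated in the labels. Of 15 genes of the DNA methylation machinery, 2 had a higher interaction, Mbd1 (0.81 ± 0.18) and Uhrf2 (0.52 ± 0.18), and 0 a lower one. The higher share of 13.3% was below the 19.1% over all genes, and 23.2% of all genes were lower.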

How the data were processed

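RNA of sorted donor and host cells from leptomeninges and parenchyma was measured by MARS-seq in 28 libraries of mm10, per the submitters' processing notes. The authors deposited 1 table with raw UMI counts per gene symbol, made with an aligner and counter not stated in the labels. Per the file headers, the table also holds a normalized signal (the counts over library size factors of the authors) and regularised log2 values of the authors. Neither was used here. All 28 raw columns were used, and totals ran over 479077 to 3066506 UMIs.

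Group means of 8 groups were fitted with edgeR 4.0.16 (quasi-likelihood, robust, TMM, low counts filtered by group) in R 4.3.3, with Benjamini-Hochberg adjustment over 12327 genes and a threshold of 0.05. An SE is the log2 difference divided by the square root of its F. Levels are CPM on TMM-scaled totals, and list shares are percent of raw UMIs. Folds against a population near 0 depend on edgeR's prior count. Positions come from GENCODE M21, which gave 14340 of 14617 symbols 1 position. The fit was tested on simulated counts with known changes.

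Members, the 43 gene lists and tests were chosen with earlier results of these data known. Named genes were the 10 largest in each direction among genes called in both genotypes with a mean of at least 10 CPM, the 5 leading genes of each pattern, up to 4 members per list by adjusted p, and a short fixed set; others are said to be chosen after their values were seen. Alternatives used DESeq2 1.42.0, limma 3.58.1 (voom), other filters, a replicate block, covariates for other cells centred within groups, and leaving out each library. Some genes that the rule names are not reported here.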

Additional observations from a re-analysis of the deposited data

Results flagged for a closer look

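The origin difference was unlike between leptomeninges and parenchyma in 5208 genes by the interaction test. Among the markers, Mrc1 had an interaction of -4.92 in log2, Pf4 -5.01, Apoe -5.18 and Cd74 -2.82.

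Of 150 groups of 4 libraries examined for a library far from its group, 3 were flagged, where chance flags about 1 in 20. Lyve1 was lowest in donor leptomeningeal mutant library 3 at 129.7 CPM, beside 233.9 to 253.9 CPM in the other 3 of that group. The border macrophage list was lowest in donor leptomeningeal control library 2 at 0.8235% of UMIs, beside 1.111% to 1.142%. The choroid plexus and ependyma list was highest in donor leptomeningeal control library 4 at 0.03959% of UMIs, beside 0.002316% to 0.006163%.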

How the results depend on the processing

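The count of interaction genes ran over 3945 (a mean of at least 10 CPM) to 5605 (voom) among the alternatives that keep the null of no difference, with 5142 under DESeq2 size factors, 5438 without a filter and 5361 with DESeq2's Wald test. A test against a 2-fold difference called 1637 (300 higher and 1337 lower). Leaving out each library gave 4617 to 5257, and 0 to 1 for the difference between genotypes, which had 3 with DESeq2's Wald test, 1 with the neutrophil covariate, 2 with the astrocyte and neuron covariate and 1 without donor microglia mutant library 3 and control library 2. Same-numbered libraries of a genotype did not deviate together (36 pairs, correlations of -0.117 to 0.093). This cannot show whether the numbers pair libraries of the same animal. The replicate block gave 4889 interaction genes, 2866 in control and 3533 in mutant chimeras, and 0 between genotypes. It also gave 3330 and 7371 by origin in leptomeninges and parenchyma, and 7582 and 6654 by compartment in donor and host cells. Opposite patterns numbered 509 to 693 without single libraries, and 531 with the block.

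Of 178 called named genes, 164 kept call and sign under every alternative in log2, and 0 reversed apart from scale. On the linear CPM scale the sign reversed for Cd74 (4374), H2-Ab1 (8740), H2-Aa (6454), H2-Eb1 (3607), Ciita (131.6), H2-Q6 (16.22), Lyz2 (1406), Ccr2 (319.2), Clec12a (18.6), Cd209a (18.91), Cfp (91.13), Il1b (350.5), Itgal (4.003), Kit (2.789), Col1a2 (6.137), Fmod (12.07), Ptgds (55.78), Vtn (7.443), Sparc (5837), Trem2 (306), Crybb1 (139.3) and Serpine2 (232.9). The direction of the interaction in these genes thus depends on the scale. Host leptomeningeal cells have 2 libraries per genotype and donor microglia the fewest UMIs, which limits the precision of both.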

Other observations

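Lysosomal and lipid genes had more lower than higher interactions. Of 30 cathepsins and lysosomal genes, 12 had a lower and 2 a higher interaction (40.0% and 6.67%, median -0.19), beside 23.2% lower and 19.1% higher over all genes. Cd63, a lysosomal tetraspanin, averaged 521 ± 32.6 and 819 ± 73.5 CPM in donor and host leptomeningeal cells and 1024 ± 102 and 348 ± 32.7 CPM in donor and host microglia (SD, n = 8, 4, 8 and 8), an interaction of -2.21 ± 0.12 (edgeR adjusted p = 6.97e-20). Ctsd, cathepsin D, was lower in donor cells of both places, with log2 differences of -1.58 in the leptomeninges and -0.27 in the parenchyma (-1.31 ± 0.15). Of 20 genes of lipid uptake and efflux, 10 were lower and 4 higher, a lower share above that over all genes. The scavenger receptors Cd36 and Msr1 had -3.85 ± 0.25 and -5.15 ± 0.37, and Lpcat3, a phospholipid-remodelling enzyme, had 1.83 ± 0.16, with 404 ± 65.7 CPM in host microglia and at most 99.6 CPM on average elsewhere.

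Of 38 macrophage transcription factors, 13 had a lower and 10 a higher interaction (34.2% and 26.3%, beside 23.2% and 19.1% of all genes). Runx3 averaged 63.8 ± 8.82 and 26.2 ± 4.66 CPM in donor and host leptomeningeal cells and 46.5 ± 7.22 and 2.64 ± 1.06 CPM in donor and host microglia (-2.85 ± 0.26). Hhex averaged 36.9 ± 4.95 and 34.6 ± 6.13 CPM in donor and host leptomeningeal cells and 40.3 ± 9.94 and 154.7 ± 7.71 CPM in donor and host microglia (2.04 ± 0.18). Within Toll-like receptor signalling, 5 of 13 were lower and 2 higher (38.5% and 15.4%), and Myd88, the shared adaptor, was higher at 1.37 ± 0.15 while Tlr2 was lower at -0.80 ± 0.14. Fcgr3, a low-affinity Fc receptor, had 0.61 ± 0.13.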
